A study of Mus musculus with 2 samples.

Results

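The cells described are 414 thymic T cells with high Tnfrsf9 transcript and little transcript of Treg (regulatory T cell) effector genes, taken from 4453 sorted cells of the Treg lineage (9.30%). A cell was a member when it had at least 4 UMIs of Tnfrsf9, at most 1 UMI summed over Ctla4, Gpr83, Lrrc32 and Nrp1, and 0 UMIs of the proliferation genes Mki67 and Top2a. A UMI (unique molecular identifier) stands for 1 captured transcript. The cells counted had at least 500 genes, at most 10% mitochondrial UMIs, and at least 80% of their hashtag UMIs from 1 hashtag. Membership was set by the cells' own transcripts, so every difference between members and other cells below is a description, and levels of the 7 rule genes are no finding.

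Droplet 3' single-cell RNA sequencing was run on 1 capture of thymocytes pooled from 2 C57BL/6 mice, 1 per genotype. Both mice carried the Foxp3eGFP reporter, which makes cells expressing the Treg transcription factor Foxp3 fluoresce, and it was the only alteration in the control mouse. The other mouse (Foxp3eGFPxLta-/-) also lacked Lta, the gene of lymphotoxin alpha, a secreted ligand of the TNF family; the age and sex of the mice were not used here. After CD8+ and CD11c+ cells had been depleted, CD4+CD8- CD3e+ thymocytes without CCR6, the chemokine receptor of recirculating cells, were sorted if they carried CD25, the reporter or both, and each mouse's cells were stained with their own hashtag antibody. All 4798 barcodes of the deposited matrix held both gene and hashtag counts; 160 failed the filters on genes and mitochondrial UMIs, and 185 further cells with both hashtags were set aside.

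Tnfrsf9 encodes 4-1BB (CD137), a costimulatory receptor that T cells display after antigen receptor signalling and that recruits TRAF adaptors to activate NF-kB. In the thymic medulla, CD4+ thymocytes that bind self peptide strongly are either deleted or directed towards the Treg lineage. Those directed to the Treg fate gain TNF receptors and the IL-2 receptor chain CD25 (Il2ra), after which IL-2, acting through STAT5, helps them to complete Foxp3 expression.

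There was 1 mouse per genotype and no replicate, so values carry no replicate error and no statistical test between groups was run. Levels are UMIs summed over cells per 1000000 UMIs (CPM). The 95% intervals given are exact but reflect counting error alone. A gene counts as tested when it had at least 50 UMIs over both sets of cells, and was called higher or lower when its ratio was at least 1.5 and the interval of the ratio left out 1. Pairs of values give the Foxp3eGFP mouse first and the Lta-/- mouse second. The members held 224 and 190 cells, with median depths of 6791.5 and 6681.5 UMIs, and the 4039 other cells had a median of 5347 UMIs. Lta itself had 38 and 9 UMIs in the members and 471 and 63 in the other cells, so it was lower in the cells labelled Lta-/- in both sets; where the deletion lies relative to the counted 3' end is not known here.

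The label of these cells was set beside markers, which were chosen on these same data and so are no independent support for it. Tnfrsf9 is high by the rule, and the other 6 genes given as markers (Gadd45b, Xcl1, Ccl4, Lad1, Mir155hg and Bcl2a1d) were higher in the members than in the other cells, where 12.9% of 10709 genes tested were higher and 14.9% lower (median log2 ratio 0.02). These shares over all genes apply to each count of list genes against the other cells below. The summed level of these 6 was 893 and 879.8 CPM in the members against 189 and 125 CPM in the other cells. The T cell genes Cd3e and Cd4 were level between the sets, with log2 ratios of -0.13 and 0.03. The 11 mature Treg genes, 4 of which the rule bounds, summed to 2830 and 2585 CPM in the members against 1687 and 1658 CPM in the other cells. Ikzf2 held most of the members' sum. The 7 immature CD4 genes were close, at 1297 and 1182 CPM against 1196 and 1241 CPM. The 9 mature CD4 genes were lower, at 1048 and 912 CPM against 2701 and 2648 CPM. Of the markers of other cells the gate could hold, the B and plasma cell genes summed to 18.2 and 23.3 CPM in the members against 523 and 98.8 CPM in the other cells, with Mzb1 and Iglc2 at 0 in the members. The 8 double-positive thymocyte genes summed to 51.7 and 58.3 CPM against 118 and 71.7 CPM, with Rag1 and Rag2 at 0 in the members of both mice. The 8 myeloid and dendritic genes summed to 244 and 247 CPM against 289 and 287 CPM, with Itgax, Csf1r and H2-Aa at 0 in the members. The 10 innate, gamma-delta and NK cell genes summed to 119 and 80.9 CPM against 118 and 113 CPM, close to the other cells in the Foxp3eGFP mouse. Gzma, Gzmb and Klrd1 were at 0 in the members, and Zbtb16 and Trdc were lower than in the other cells. Eomes and Cd160 of the same list were higher in the members, as given below. The part of such cells in the results below was not tested. Among the 8 proliferation markers Cdk1 was at 0 in the members, which the rule favours. Cd8a, whose protein the sort excluded, had 36 UMIs in 6.76% of the members against 2.30% of the other cells (3.68% and 1.18% after thinning each cell to 3000 UMIs). Without the members with a Foxp3 UMI or at least 5 UMIs of Cd8a and Cd8b1, the number of genes called in each comparison stayed within 1.5 times that reported. This left 385 of the 414 members, and nearly all of those left out had a Foxp3 UMI. Most members with a Cd8a or Cd8b1 UMI stayed in, so the part of cells with Cd8 transcripts was not tested.

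**Figure D1:**
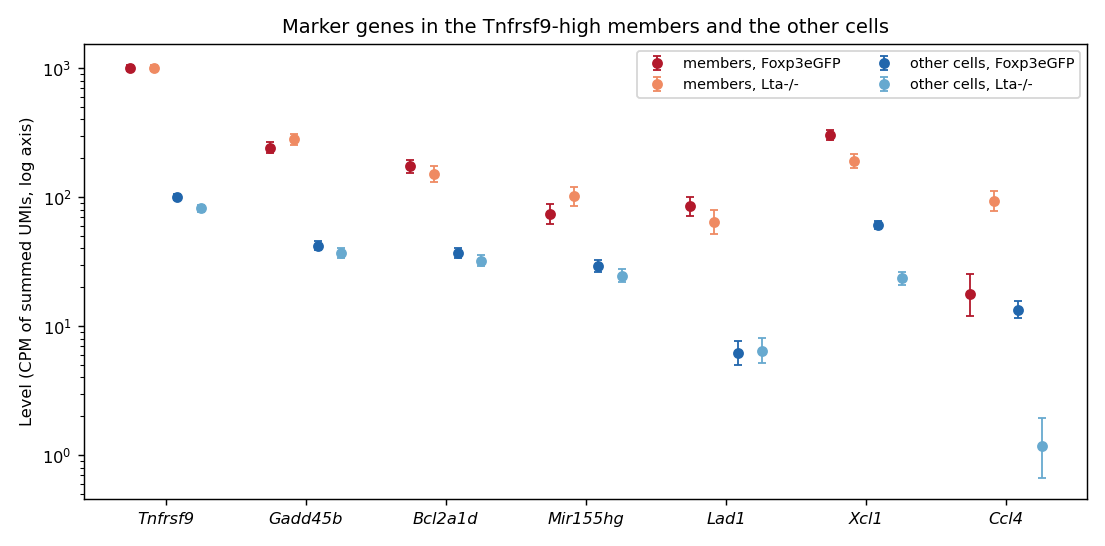
Level of the 7 marker genes as CPM of summed UMIs on a log axis, in members and other cells of each mouse, with exact 95% counting intervals. The members lie above the other cells of the same mouse for every marker, by the least for Ccl4 in the Foxp3eGFP mouse (17.6 against 13.5 CPM), and Tnfrsf9 is high because it chose the members.

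Sequences were read for the genes that carry this profile from RefSeq promoter and miRNA tables of the build GRCm38.p6. The 250 bases before the transcription start are shown for Tnfrsf9, which defines the cells, for Nfkb2 and Tnfaip3, a subunit and an inhibitor of NF-kB that were among the highest of their lists, and for Bcl2a1d, a survival gene of the BCL2 family. Capitals mark matches, on either strand, to 3 motifs: GGG, any 2 bases and TTTCC for NF-kB (kB), TGANTCA for AP-1 and GCGTGGGCG for EGR. None of the matches overlap. Searched as well were TGACGTCA (CRE) and AAAGGTCA (NBRE), which had no match in the windows shown.
Tnfrsf9, the second of 2 starts, chr4:150927749-150927998, plus strand: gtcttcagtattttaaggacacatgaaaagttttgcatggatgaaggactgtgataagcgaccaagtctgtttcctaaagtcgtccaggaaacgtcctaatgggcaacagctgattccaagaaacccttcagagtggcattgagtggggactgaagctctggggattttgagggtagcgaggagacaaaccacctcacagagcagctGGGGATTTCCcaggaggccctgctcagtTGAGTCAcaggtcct
Tnfaip3, the first of 2 starts, chr10:19015411-19015660, minus strand: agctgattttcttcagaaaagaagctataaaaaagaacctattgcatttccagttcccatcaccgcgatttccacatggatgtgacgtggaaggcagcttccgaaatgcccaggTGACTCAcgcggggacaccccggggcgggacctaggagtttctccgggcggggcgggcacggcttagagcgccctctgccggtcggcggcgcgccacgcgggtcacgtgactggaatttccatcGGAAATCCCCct
Nfkb2, the first of 3 starts, chr19:46304487-46304736, plus strand: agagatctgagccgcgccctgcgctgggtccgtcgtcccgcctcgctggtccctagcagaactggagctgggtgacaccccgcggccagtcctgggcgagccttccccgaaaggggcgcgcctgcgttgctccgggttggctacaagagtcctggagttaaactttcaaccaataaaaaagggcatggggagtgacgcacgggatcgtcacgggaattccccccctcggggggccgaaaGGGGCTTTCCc
Bcl2a1d, chr9:88731851-88732100, minus strand: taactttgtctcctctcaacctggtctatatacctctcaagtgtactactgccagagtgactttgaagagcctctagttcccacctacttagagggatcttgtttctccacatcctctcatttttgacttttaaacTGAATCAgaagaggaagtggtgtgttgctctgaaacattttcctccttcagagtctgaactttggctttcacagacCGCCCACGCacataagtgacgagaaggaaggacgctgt
mmu-miR-155-5p, chr16:84714143-84714165, plus strand, seed (bases 2 to 8) in capitals: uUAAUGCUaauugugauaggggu
These windows were picked from those that hold a match. The first Tnfrsf9 window, the second of Tnfaip3 and the windows of Gadd45b, Lad1, Xcl1 and Mir155hg held none of the motifs, so that of the 6 markers with an entry 1 held the kB letters and 2 the AP-1 letters. In the Tnfrsf9 window shown the kB match starts at position -43 and the AP-1 match at -15 relative to the transcription start. The Tnfaip3 window has a kB match at -12 and an AP-1 match at -136, the Nfkb2 window a kB match at -11, and the Bcl2a1d window an AP-1 match at -114 and an EGR match at -38. The kB letters occur in 1.41%, the AP-1 letters in 6.75% and the EGR letters in 0.536% of all 32851 windows of that length. Of the 15 NF-kB subunit and inhibitor genes, 12 had an entry and 5 of these (Cyld, Nfkb2, Nfkbia, Rel and Tnfaip3) held the kB letters. The share with the kB letters was 1.89% among the genes higher in the members that had an entry, 2.12% among the lower ones and 1.81% among all genes tested. Such a match is a description of letters and no evidence of binding. The miRNA is shown because Mir155hg, its host transcript, is a marker of the cells; the counts are of the host transcript, not of the mature miRNA.

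Beyond Tnfrsf9, the markers ranged from genes found in many members to genes held by few. Gadd45b, a stress and NF-kB response gene that acts on MAP kinase signalling, stood at 241 and 279.9 CPM in the members against 42.1 and 37.0 CPM in the other cells, a log2 ratio of 2.71 (2.57 to 2.84). Its detection was 46.6% of members and 8.34% of other cells, or 31.9% and 5.97% after thinning. Bcl2a1d was at 174 and 151 CPM in the members against 36.8 and 32.2 CPM in the other cells, a log2 ratio of 2.24 (2.08 to 2.40), and its reads can be split with the near-identical copies Bcl2a1a and Bcl2a1b. The level in both mice's members was thus several times that of the other cells for either gene. Lad1, which encodes the anchoring filament protein ladinin, had the largest ratio of all genes that the naming rule allowed, 3.57 (3.28 to 3.87), at 84.6 and 64.1 CPM in the members against 6.24 and 6.47 CPM in the other cells. Mir155hg was at 74.6 and 101 CPM in the members against 29.3 and 24.6 CPM in the other cells, a log2 ratio of 1.68 (1.47 to 1.89). Lad1 was in 23.9% of members against 2.55% of other cells (15% and 1.42% after thinning), so most members had no UMI of the gene with the largest ratio.

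Other genes with the largest ratios to the other cells formed no single family. Trib1, a pseudokinase that binds the ubiquitin ligase COP1, was at 103 and 99.1 CPM in the members against 15.9 and 15.3 CPM in the other cells (log2 2.70). Rgs16, which shortens signals of G protein-coupled receptors, was at 2.18, Lmna, the gene of nuclear lamin A, at 2.18, and Eno3, an enolase of glycolysis, at 2.12. The RNA-modifying enzymes Pus7 and Mettl1 were at 2.08 and 1.97 and the lysine methyltransferase Smyd2 at 1.99. Colq, which anchors acetylcholinesterase at the synapse, was at 1.93. In each of the 2 mice alone these 8 genes were higher in the members, with the smallest value 1.56 for Colq in the Lta-/- mouse.

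Many of the lowest genes by ratio belong to the cell cycle. The histone genes Hist1h2ap, Hist1h2ae and Hist1h1b were at -5.97, -5.79 and -5.68 and the mitotic genes Kif23 and Cenpa at -3.40 and -3.09. The rule removed cells with Mki67 or Top2a from the members, which largely fixes these values: against cells that met every criterion but Tnfrsf9, Hist1h2ap was at -0.81 and Hist1h1b at -0.34. Others of the lowest are not cell cycle genes. Igfbp4 was at 14.7 and 13.1 CPM in the members against 243 and 226 CPM in the other cells (log2 -4.07), Il7r, the IL-7 receptor of mature thymocytes, at 20.6 and 24.8 CPM in the members against 216 and 293 CPM in the other cells (-3.50), and Rgs1, a signalling regulator abundant in Treg cells, at -2.99. Il6ra, an IL-6 receptor chain, was at -2.60 and Ms4a6b, a membrane protein of mature T cells, at -2.45, and BE692007 was at -2.77. Igfbp4 and Il7r were also lower against cells that met the other criteria and had 0 Tnfrsf9 UMIs, at -4.14 and -3.82. This set is narrower than the one used for the histone genes, which also held cells with 1 to 3 UMIs. In those cells Il7r was at 123 CPM.

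Tnfrsf9 was accompanied by other TNF receptors. Of 11 further receptors listed, 9 were tested, 4 were higher and 1 lower (median log2 ratio 0.16). Tnfrsf4 (OX40), a costimulatory receptor of activated and Treg cells, was at 1102 and 888 CPM in the members against 435 and 359.9 CPM in the other cells, a log2 ratio of 1.34 (1.28 to 1.40). Tnfrsf18 (GITR) was at 535 and 439 CPM in the members against 300.0 and 262 CPM in the other cells, a log2 ratio of 0.81 (0.73 to 0.89). Tnfrsf1b, the TNF receptor TNFR2 that Treg cells use, was at 1.20 and the death receptor Fas at 0.95. Tnfrsf1a, the TNFR1 that carries a death domain, was lower at -0.81, and Cd27 was level at 0.16. Among 10 tested ligands of the family, Cd40lg was higher at 119 and 151 CPM in the members against 55.1 and 59.7 CPM in the other cells (log2 1.21), as were Tnfsf4 (OX40 ligand, 24 UMIs), Fasl (26 UMIs) and Tnfsf11 (RANKL), at 2.42, 1.65 and 0.75. Ltb, which pairs with lymphotoxin alpha on the cell surface, was lower at 310.1 and 319 CPM in the members against 749.5 and 715 CPM in the other cells (log2 -1.22 (-1.32 to -1.13)). With the mice pooled no other ligand was called lower, but in the Foxp3eGFP mouse alone Tnfsf10 and Lta were as well, at -0.83 and -0.67. Tnfsf9, the ligand of 4-1BB, had 4 UMIs in all members. Of the adaptors that these receptors use, Traf3 was higher at 0.72, and Traf5 and the kinase gene Map3k14 (NIK) were lower at -1.33 and -0.63; Traf1 stood at -0.38.

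Most NF-kB subunit genes and some of their inhibitors were higher in the members. Of the 5 subunit genes, 4 were called higher and none lower (median log2 ratio 0.89). Nfkb2, a subunit of the alternative pathway, was at 76.9 and 70.0 CPM in the members against 25.5 and 25.0 CPM in the other cells, a log2 ratio of 1.55 (1.32 to 1.77), and its partner Relb at 99.3 and 94.8 CPM in the members against 40 and 39.7 CPM in the other cells, a log2 ratio of 1.29 (1.10 to 1.47). Rel and Nfkb1 were at 0.89 and 0.87, while Rela was at -0.23 (-0.61 to 0.12) and not called. Of 10 inhibitors and feedback genes, 4 were higher and 1 lower (median 0.43). Tnfaip3, which encodes the ubiquitin-editing enzyme A20, was at 38.2 and 46.7 CPM in the members against 14.4 and 14.7 CPM in the other cells (log2 1.53) and Nfkbid, a nuclear inhibitor-like regulator, at 67.5 and 83.8 CPM in the members against 26.4 and 30.4 CPM in the other cells (1.40). Nfkbie and Nfkbia, cytoplasmic inhibitors, were at 0.96 and 0.73, and Nfkbiz was lower at -0.80 on 41 UMIs. In either mouse alone the same 4 subunits were called higher and Rela was not.

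Genes that respond to the T cell receptor were higher or lower in the members depending on the gene. The 3 orphan nuclear receptor genes of the Nr4a family were higher, Nr4a1 at 126 and 126 CPM in the members against 44.6 and 44.2 CPM in the other cells (log2 1.5 (1.33 to 1.67)), Nr4a3 at 75.8 and 67.8 CPM in the members against 20 and 18.1 CPM in the other cells (1.92) and Nr4a2, with 49 UMIs mostly in few cells, at 1.91. Egr1, an immediate early transcription factor of the same signals, was lower at 33.5 and 32.1 CPM in the members against 81.2 and 83.1 CPM in the other cells, a log2 ratio of -1.32 (-1.62 to -1.03). Egr2 and Egr3 were at -0.48 and -0.38 on 29 and 37 UMIs and were not called. Jun, a component of AP-1, had 6 UMIs in all members and was at -3.15, the phosphatase gene Dusp1 was at 1.66 and Fos at 0.65 with 92.5% of its UMIs in 10 cells. AP-1 and Dusp1 transcripts also respond to tissue handling, so the list was described for that as well: 3 of 14 genes were higher and 3 lower (median -0.05). Over all genes tested 12.9% were higher and 14.9% lower, so these counts are no result about the list. Of 16 genes of lasting T cell receptor signals, 6 were higher and 1 lower (median 0.50). Ikzf2, the gene of Helios, led them at 1964 and 1831 CPM in the members against 689.6 and 661 CPM in the other cells, a log2 ratio of 1.49 (1.45 to 1.54), followed by Irf4 at 1.22 and Itm2a at 1.09. Cd69 and Pdcd1 stood at 0.51 and 0.53, short of the ratio for a call, and Cd5 at 0.05. Of 16 tested brakes on the signal, 5 were higher, among them the MAP kinase phosphatases Dusp5 at 254 and 208 CPM in the members against 65.1 and 59.0 CPM in the other cells (log2 1.91) and Dusp4 at 1.70 and the ERK pathway inhibitor Spry1 at 2.02. The diacylglycerol kinase gene Dgka was lower at 59.3 and 50.3 CPM in the members against 169 and 177 CPM in the other cells (-1.65), as was Dusp6 at -0.73.

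The BCL2 family held genes for survival and for death that were both higher. Bcl2l11, which encodes the death inducer Bim that deletes self-reactive thymocytes, was at 318 and 264 CPM in the members against 62.7 and 67.1 CPM in the other cells, a log2 ratio of 2.18 (2.06 to 2.30). Bcl2l11 was seen in 54.3% of members and 19.9% of other cells (39.2% and 13.4% after thinning). Bid, another death gene, was at 1.22 on 49 UMIs, while Bax and Bbc3 (Puma) were at 0.45 and 0.06 and not called. Of the survival genes, Bcl2l1 (Bcl-xL) was at 55.2 and 59.8 CPM in the members against 18.2 and 20.5 CPM in the other cells (log2 1.57 (1.31 to 1.82)) and Bcl2a1b at 1.73, but Bcl2 itself was lower at 134 and 98.4 CPM in the members against 379 and 335 CPM in the other cells, a log2 ratio of -1.59 (-1.75 to -1.44). Mcl1 stood at -0.28. Members therefore had more transcript of Bim, Bcl-xL and A1 and less of Bcl2 than the other cells, in each mouse alone as well. Of the 3 Gadd45 genes, Gadd45g was higher at 0.68 and Gadd45a stood at 0.21.

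Transcripts of the IL-2 pathway were not high alongside the TNF receptors. Il2ra was at 92.8 and 72.9 CPM in the members against 95 and 72.3 CPM in the other cells, a log2 ratio of 0.00 (-0.19 to 0.19), so its level was close to that of all other cells as a whole. Against cells that met every other criterion but had 0 Tnfrsf9 UMIs, Il2ra was higher at 0.85 (0.63 to 1.08). Of 17 genes of IL-2, IL-7 and STAT5 signalling, 2 were higher and 7 lower (median -0.40). Stat5a was higher at 86.3 and 104 CPM in the members against 49.1 and 42.7 CPM in the other cells (log2 1.03) and so was the kinase gene Pim3 at 0.59. The STAT5 target Cish was at -0.07, and Socs1 at -0.40 was not called either. The lower ones included the shared IL-2 and IL-15 receptor chain Il2rb at -0.76, Pim1 at -1.36 and the feedback inhibitors Socs2 and Socs3 at -3.18 and -2.99 on 5 and 6 UMIs. Il2 itself had 15 UMIs in 3 members. Treg-associated genes outside the rule were mostly lower, 11 of 19 against 3 higher (median -1.06), with Foxp3 at 15.3 and 10.2 CPM in the members against 60.1 and 52.4 CPM in the other cells (log2 -2.12 (-2.61 to -1.66)). The rule bounds 4 Treg genes and so favours low values for genes that go with them. The 3 higher were Ikzf2, Swap70 at 0.78 and Penk, the gene of proenkephalin, at 1.07 with 95.1% of its UMIs in 10 cells.

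The sort had selected cells by CD25 protein or the Foxp3 reporter, and the transcripts of these 2 markers were counted per cell. Il2ra without Foxp3 was seen in 117 members (28.3%, 24.0 to 32.9), Foxp3 without Il2ra in 15 (3.62%), both in 12 (2.90%) and neither in 270 (65.2%). Among the other cells the shares were 11.6%, 11.9%, 9.36% and 67.1%. Members with a marker transcript thus mostly had Il2ra alone, whereas the other cells had Il2ra alone and Foxp3 alone about equally often. After thinning, Il2ra was detected in 21.6% of members and 16.0% of other cells and Foxp3 in 4.66% and 14.3%. Failure to capture a transcript says nothing of the protein in that cell.

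Chemokine transcripts were concentrated in few members. Xcl1, the chemokine that attracts XCR1+ dendritic cells of the thymic medulla, was at 301 and 189.5 CPM in the members against 60.9 and 23.6 CPM in the other cells (log2 2.56 (2.42 to 2.69)) and was detected in 22.9% of members against 3.22% of other cells (13.7% and 1.95% after thinning). The 10 members with the most Xcl1 held 49.5% of its UMIs, and 1 other cell of the Foxp3eGFP mouse held 554 of the 810 UMIs of that mouse's other cells. Ccl4, an inflammatory chemokine, had 30 UMIs in 9 Foxp3eGFP members and 129 UMIs in 12 Lta-/- members, 81 of them in 1 cell. Its log2 ratio to the other cells was 0.39 in the Foxp3eGFP mouse and 6.31 in the Lta-/- mouse. In the other cells of the Foxp3eGFP mouse, 158 of 179 Ccl4 UMIs lay in 1 cell. Ccl4 was found in 5.07% of members and 0.396% of other cells, so as a marker it describes few of them. Ccl3 had 1 UMI and Ccl5 6 UMIs in the members, and Ifng 18 UMIs, all in 1 cell. Of 8 tested chemokine receptors, 3 were higher and 4 lower (median -0.41). Ccr8, Ccr6 and Ccr4 were higher at 1.72, 1.15 and 0.61 on 59, 27 and 38 UMIs. The sort had left out cells with CCR6 protein, so the Ccr6 value is of transcript in cells sorted as lacking it. Cxcr4, Ccr9, Cxcr6 and Cxcr3 were lower at -0.84, -0.82, -2.17 and -3.20.

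Genes of thymic maturation and exit were low almost throughout. Of 20 listed and tested, 19 were lower and none higher (median log2 ratio -1.75). S1pr1, the receptor that guides thymocytes out of the thymus, was at 51.7 and 43.7 CPM in the members against 243 and 243 CPM in the other cells, a log2 ratio of -2.34 (-2.58 to -2.10). Detection stood at 19.1% of members and 56.4% of other cells (10.5% and 44.8% after thinning). Klf2, a transcription factor that drives S1pr1, was at 327 and 287 CPM in the members against 713 and 666 CPM in the other cells (-1.16). The exception was Ccr7, the chemokine receptor that brings positively selected thymocytes into the medulla, at 285 and 225 CPM in the members against 260.3 and 255 CPM in the other cells and a log2 ratio of 0.00 (-0.11 to 0.11). Its detection was level too, at 44.4% of members and 48.8% of other cells after thinning.

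The list of immature CD4 genes was mixed, with 3 of 11 tested higher and 4 lower (median -0.26). Cd24a, a surface protein that falls as thymocytes mature, was at 89.3 and 78.0 CPM in the members against 20.8 and 17.5 CPM in the other cells (log2 2.13 (1.91 to 2.35)) and the transcription factor gene Sox4 at 512 and 487 CPM in the members against 208 and 202 CPM in the other cells (1.29). Ccr9, a receptor of cortical and newly selected thymocytes, was lower at -0.82, and Rag1 and Rag2 had 0 UMIs. Satb1 stood at -0.57 and Tcf7 at -0.05. Of 21 tested lineage transcription factors, 6 were higher and 6 lower (median -0.21). The higher ones were Eomes at 2.38 on 78 UMIs, Bcl6 at 1.29, Hivep3 at 1.23, Bach2 at 0.86, Irf8 at 0.69 and Ikzf3 at 0.62. Lef1 and Bcl11b, factors of T cell commitment, were lower at -0.96 and -0.92, and so were Id2, Id3, Maf and Zbtb16 (-1.62, -0.86, -2.07 and -2.99). Inhibitory receptor and ligand genes leaned up, 5 of 12 higher and 1 lower (median 0.51), with Cd160 at 1.61, Pdcd1lg2 (PD-L2) at 1.39, Cd200 at 1.24, Btla at 1.14 and Cd274 (PD-L1) at 1.07.

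All 19 listed ribosome biogenesis genes were called higher in the members, with a median log2 ratio of 1.21. Ncl, the gene of nucleolin, was at 1885 and 2233 CPM in the members against 918 and 838 CPM in the other cells, a log2 ratio of 1.21 (1.17 to 1.26). Srm, which makes spermidine, was at 137 and 166 CPM in the members against 50.1 and 42.3 CPM in the other cells (1.70) and Nop16 at 1.74; the smallest ratio was that of Myc, the transcription factor that drives such genes, at 0.67 (0.46 to 0.87). In the Foxp3eGFP mouse alone 18 of the 19 were called, and in the Lta-/- mouse all 19. The members were also deeper cells, with a median of 6739.5 UMIs against 5347. Within the members, Ncl and Srm had rank correlations of 0.34 and 0.27 with the total UMIs of a cell. Of 14 genes of glycolysis and nutrient uptake, 6 were higher and 2 lower (median 0.53). Tfrc, the transferrin receptor, was at 1.24, Hk2 at 1.38 and Pgk1 at 0.76, while the glucose transporter genes Slc2a1 and Slc2a3 were lower at -1.13 and -0.80. Interferon response genes were lower or level, 10 of 19 lower and none higher (median -0.62), with Ifit3 at -1.98, Ifit1 at -1.27 and Isg15, not called, at -0.26.

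**Figure D2:**
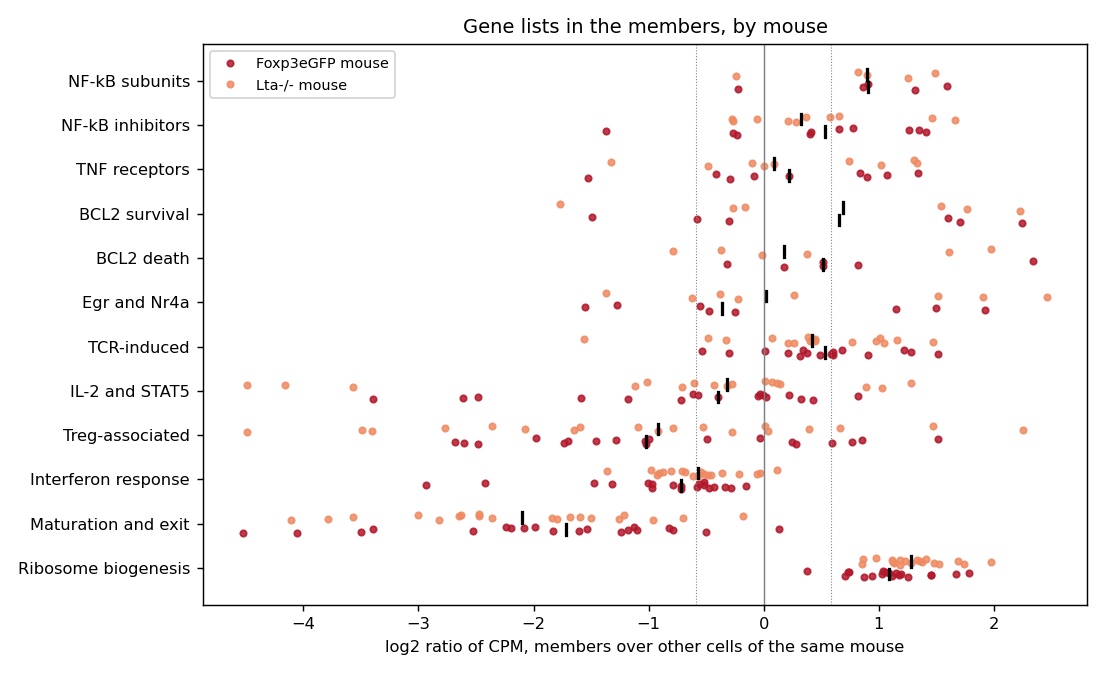
Each point is a gene of a list, placed by its log2 ratio of CPM between members and other cells of the same mouse; bars mark medians over the genes tested with both mice pooled, and dotted lines mark a ratio of 1.5 either way. The ribosome biogenesis points lie to the right and all maturation and exit points but 1 (Ccr7 in the Foxp3eGFP mouse) to the left, while the Egr and Nr4a list lies on both sides.

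The threshold of 4 UMIs cuts through a range of values. Just inside it, 89 cells with exactly 4 Tnfrsf9 UMIs had 315 CPM of Gadd45b, 119 of Bcl2a1d, 71.5 of Lad1 and 86.9 of S1pr1. Just outside it, 118 cells with exactly 3 UMIs had 114, 73.8, 29.0 and 102 CPM. Gadd45b did not follow the order of the UMIs, at 148 CPM in cells with exactly 5 and 140 CPM in cells with exactly 2. Of the 414 members, 338 had 0 UMIs of the 4 Treg genes and 76 had 1; the 25 cells just outside, with 2, had 361 CPM of Gadd45b and 97.9 of S1pr1. Cells that met all other criteria were then set out by Tnfrsf9 UMIs, in classes of 0 (1934 cells), 1 to 3 (603), 4 to 5 (157), 6 to 9 (165) and 10 or more (92). Median depth was 4811.5, 5463, 6129, 7200 and 7487 UMIs in these classes, so a class of higher UMIs is also a class of deeper cells, and the part of depth was not tested. Tnfrsf4 was at 250 CPM in the first class, 664, 798 and 940 CPM in the next ones and 1417 CPM in the last. Srm went from 30.1 CPM in the first class to 205 CPM in the last, and Xcl1 from 12.0 to 533 CPM, with most of its increase among the members. S1pr1 stood at 301, 190, 85.9, 37.0 and 13.4 CPM, lower at every step, and Ltb went from 805 to 177 CPM. Ikzf2 was already at 1322 CPM in cells with 1 to 3 UMIs and between 1855 and 1936 CPM in the 3 member classes, so it varied little above the threshold. Ccr7 lay between 251 and 275 CPM in all 5 classes. Il2ra was at 46.4, 71.7, 83.1, 64.6 and 118 CPM. Foxp3 was at 44.5 CPM in the first class and had 0 UMIs in the last.

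**Figure D3:**
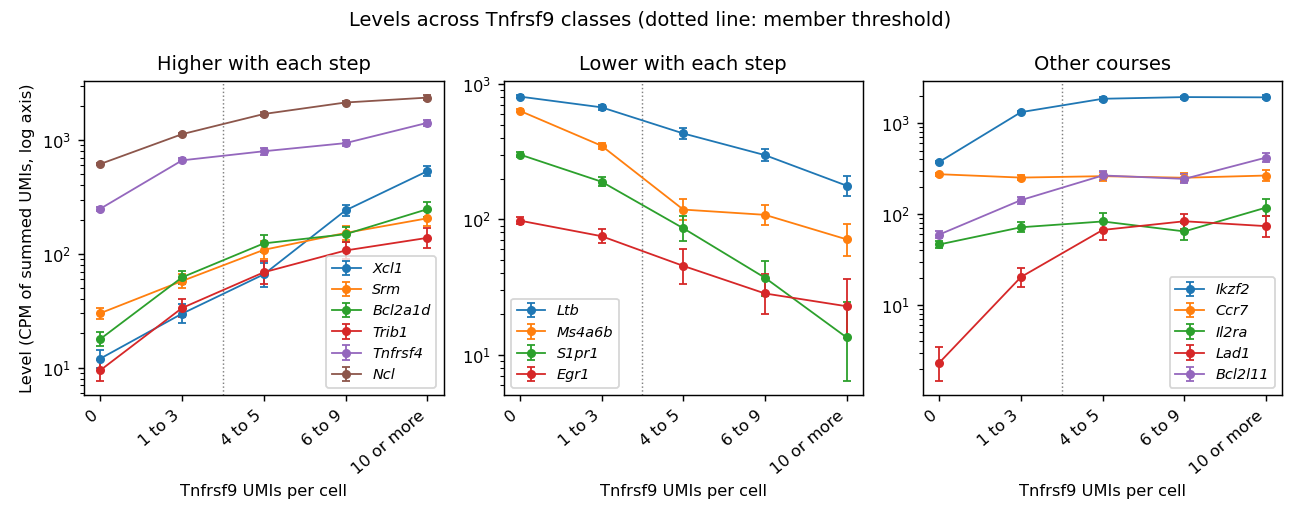
Level in CPM on log axes of genes chosen after their values were seen, across classes of Tnfrsf9 UMIs per cell among cells that met the other criteria, with exact 95% counting intervals. S1pr1 is at 13.4 CPM and Xcl1 at 533 CPM in the last class, and Ccr7 lies between 251 and 275 CPM throughout.

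The members were not uniform. Rank correlations of per-cell CPM were computed for all pairs of 30 genes over the 414 members; these genes were chosen after values were seen, the cells share 1 library and differ in depth, and the values are descriptions. Ribosome biogenesis genes varied together, with a Spearman rho of 0.72 for Ncl with Npm1 (0.72 in either mouse alone). The 16 signal genes, from Tnfrsf4 to Bcl2l11 in the plot of correlations, had a median of 0.33 over their pairs (0.01 to 0.62), with 0.62 for Tnfrsf4 with Tnfrsf18, 0.54 for Nr4a1 with Nr4a3 and 0.44 for Trib1 with Bcl2l11. Between these and the 5 growth genes (Ncl, Npm1, Srm, Eif5a and Mif) the 80 pairs had a median of 0.10 (-0.22 to 0.30), so the ranges overlap. Npm1 had -0.52 with the nuclear noncoding RNA Malat1, and these 2 also followed depth, at 0.47 and -0.49 with the total UMIs of a cell. Thinned to 3000 UMIs, the values for Ncl with Npm1, Tnfrsf4 with Tnfrsf18 and Nr4a1 with Nr4a3 were 0.61, 0.45 and 0.43. Xcl1 and Nrgn, which encodes the calmodulin-binding protein neurogranin, had 0.27 with each other.

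**Figure D4:**
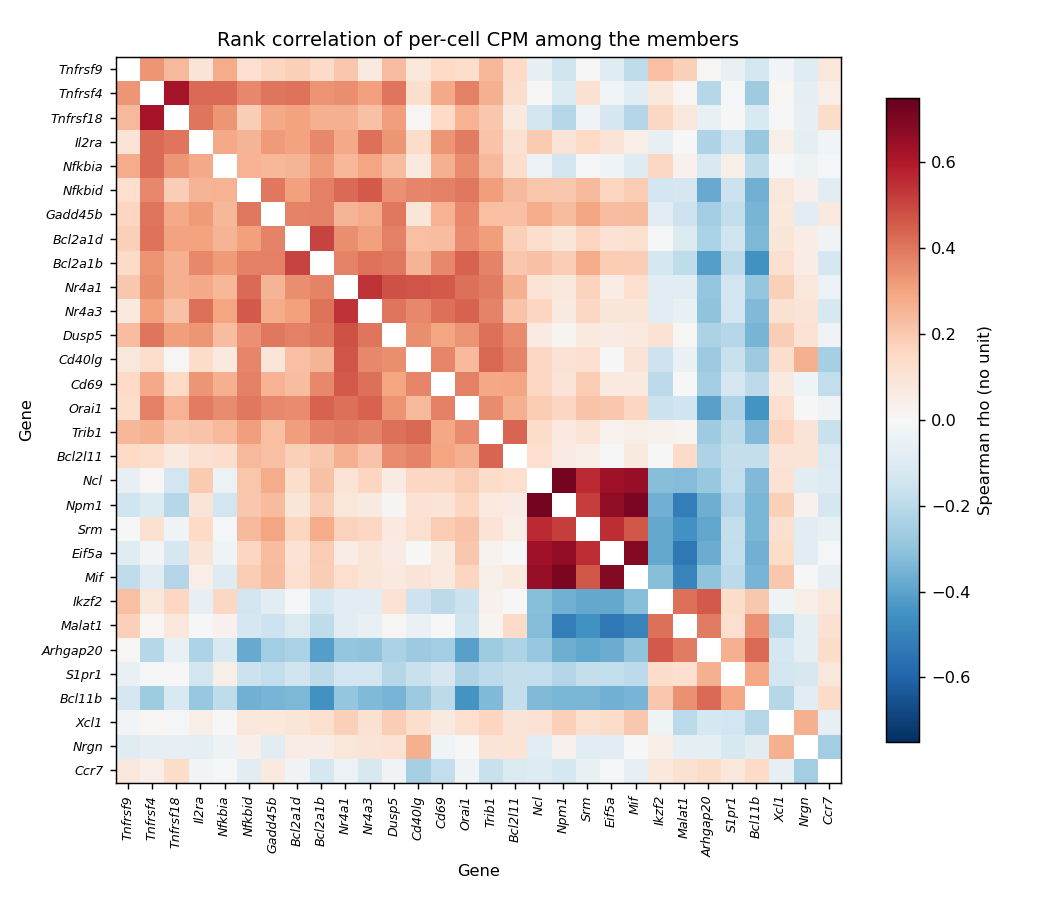
Spearman rho between genes over the 414 members, on per-cell CPM, with red for positive and blue for negative values. A red block of ribosome and growth genes (Ncl to Mif, with 0.72 for Ncl and Npm1) and a paler one of signal genes (Tnfrsf4 to Bcl2l11) are seen, with Arhgap20 and Bcl11b in blue against most of both and Malat1 in blue against the former.

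Members with an Il2ra transcript and no Foxp3 (117 cells) were set beside members with neither (270 cells), for 23 genes chosen after values were seen. Their median depths were 6935 and 6685.5 UMIs. Mir155hg was at 216 CPM in the former and 33.4 CPM in the latter (log2 2.69, 2.28 to 3.12), and Nr4a3 at 179 and 27.9 CPM (2.68, 2.23 to 3.15). Nfkbid, Gadd45b and Tnfrsf4 were also higher with Il2ra, at 2.00, 1.59 and 1.57. Tnfrsf9, whose range the rule had cut, was at 0.29. Ikzf2 and Ccr7 were level between them, at -0.12 and 0.01. S1pr1, Bcl11b and Nrgn were lower with Il2ra, at -1.43, -1.21 and -0.93. Cish was at 0.99 and Il2rb at -0.17 (-0.77 to 0.41).

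The most like cells were 64 that had at least 4 Tnfrsf9 UMIs and no proliferation transcript but at least 2 UMIs of the 4 Treg genes (median depth 6776 UMIs). Of 6642 genes tested, 5.54% were higher in the members and 5.57% lower (median log2 ratio 0.09). The 2 sets had close levels of much of the signalling profile: none of the 5 NF-kB subunits was called either way, Gadd45b was at 0.28 (-0.02 to 0.58), Bcl2a1d at -0.13 (-0.45 to 0.21) and Ikzf2 at -0.16 (-0.25 to -0.06). Among the 7 markers, Lad1, Xcl1 and Ccl4 were called higher in the members and none lower. Lad1 was detected in 23.9% of members and 17.2% of Treg-gene cells, and Xcl1 in 22.9% and 12.5%. Ccl4 had no UMI in the Treg-gene cells. They differed in the IL-2 pathway, where 6 of 13 tested genes were lower in the members and none higher. Il2ra was at 83.9 CPM in the members and 217 CPM in the Treg-gene cells (log2 -1.37 (-1.70 to -1.03)), Il2rb at -1.53, Cish at -1.39 and Socs1 at -1.25. Exit genes were lower as well, 11 of 18, with S1pr1 at 48.1 against 173 CPM (-1.85 (-2.24 to -1.45)). Tnfrsf4 and Tnfrsf18 were lower at -0.62 and -0.64, and Nr4a1, Nr4a3 and Egr1 at -0.72, -0.68 and -1.20.

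Genes higher in the members than in those Treg-gene cells included Bcl2l11, at 294 against 108 CPM (log2 1.45 (1.05 to 1.88)), and Cd24a, at 84.2 against 25.9 CPM (1.70 (0.90 to 2.63)). The largest ratios by the naming rule were those of Ctla2a, a protease inhibitor related to cathepsin propeptides, at 2.73 (1.34 to 4.62), Nrgn at 2.66 (1.99 to 3.42), the Hedgehog signal transducer Smo at 2.09, Basp1 at 1.90, the arginine methyltransferase Prmt5 at 1.68, Pdlim1 at 1.49, Marcksl1 at 1.44 and Ankrd49 at 1.44. Some of these rest on few UMIs in the Treg-gene cells, with 4 for Ctla2a, 7 for Smo, 8 each for Basp1 and Prmt5 and 10 for Ankrd49. The Nrgn value was 6.47 in the Foxp3eGFP mouse alone, 0.81 in the Lta-/- mouse alone and 0.68 with members required to have 0 UMIs of the Treg genes. The Treg-gene cells of both mice together held 18 Nrgn UMIs, so the values of the single mice rest on few UMIs. Among the lowest beside S1pr1 were Ecm1 at -2.21, Ms4a6b at -1.94, Samhd1 at -1.84, Gsta4 at -1.73, Iigp1 and Tmem64 each at -1.72, Gimap3 at -1.66 and Hopx at -1.66. Ribosome biogenesis genes were level to higher, 3 of 19 called (median 0.40). The Treg genes chose the 2 sets apart, so lower values of genes that go with them are favoured by the choice.

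Members made up 10.1% (8.91 to 11.5) of the Foxp3eGFP cells and 8.47% (7.35 to 9.70) of the Lta-/- cells. The ratio of the shares was 0.835 (0.685 to 1.02), so its interval includes a ratio of 1. All cells with at least 4 Tnfrsf9 UMIs, whatever their other genes, were 308 of 2209 (13.9%) and 232 of 2244 (10.3%), a ratio of 0.741 (0.623 to 0.882). With 1 mouse per genotype, a difference between mice and a difference between genotypes cannot be told apart, here and in all that follows. Tnfrsf9, which chose the members, had close levels in the 2 mice, 999.6 and 1009 CPM (log2 0.01 (-0.09 to 0.12)). Of 6226 genes tested between Lta-/- and Foxp3eGFP members, 1.43% were higher and 2.15% lower (median log2 ratio -0.01).

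Few genes of the lists above were called between the mice, as few of all genes were, so the absence of calls in a short list is no result about that list. None of the tested NF-kB subunits, NF-kB inhibitors, TNF receptors, TNF ligands, Egr and Nr4a genes, BCL2 family genes, signal brakes, ribosome biogenesis or exit genes was called either way between the genotypes. Bcl2l11 was at -0.27 (-0.47 to -0.08), Gadd45b at 0.22 (0.01 to 0.42) and Nfkb2 at -0.14 (-0.53 to 0.25). Il2ra was at 92.8 and 72.9 CPM, a log2 ratio of -0.35 (-0.72 to 0.02), and Il2ra without Foxp3 was seen in 32.1% (26.1 to 38.7) of Foxp3eGFP and 23.7% (17.8 to 30.4) of Lta-/- members. Cish, at 60.5 and 37.2 CPM, was the only gene of the IL-2 and STAT5 list called (log2 -0.70 (-1.22 to -0.20)).

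The genes that did differ were named by rule, 8 in each direction. Nrp2, a receptor for semaphorins and VEGF, had 114 UMIs in 37 Foxp3eGFP members and 15 UMIs in 11 Lta-/- members, 67 and 10.9 CPM, the lowest log2 ratio at -2.61 (-3.50 to -1.83). The other cells differed the same way at -1.19. C1qtnf12 (98.1 and 50.3 CPM, -0.96), the inhibitory receptor gene Btla (68.1 and 38.6 CPM, -0.82) and Ncoa7 (-0.82) were lower too, where the other cells had -0.15, 0.16 and -0.31. Ly6k, Trim25, Gfer and the interferon response gene Rtp4 were at -0.93, -0.91, -0.80 and -0.79 in the members and lower in the other cells as well. Higher in the Lta-/- members were Dnah8 (34.1 and 95.5 CPM, log2 1.49 (1.03 to 1.96)) and Glo1, a glyoxalase (112 and 237 CPM, 1.09 (0.82 to 1.35)). Both had like ratios in the other cells, 1.36 and 1.40, and so did the class I gene H2-Q7, at 0.75 and 0.91. Cyp51 and Hmgcs1, enzymes of cholesterol synthesis, were at 1.30 (0.79 to 1.82) and 1.21 (0.68 to 1.76) in the members and 0.55 and 0.50 in the other cells. Srgn, the gene of the granule proteoglycan serglycin, was at 512 and 826 CPM (0.69 (0.56 to 0.82)) against 0.13 in the other cells, and the amino acid transporter gene Slc1a5 at 0.88. Ly6a was at 0.73 but at 0.37 without the member with the most of its UMIs, which ends the call, and Srgn at 0.58 without its top member lies just under the ratio for one. Slc1a5 was at 0.07 in cells thinned to 3000 UMIs, with the rule changed to at least 2 Tnfrsf9 UMIs and no Treg gene UMI.

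**Figure D5:**
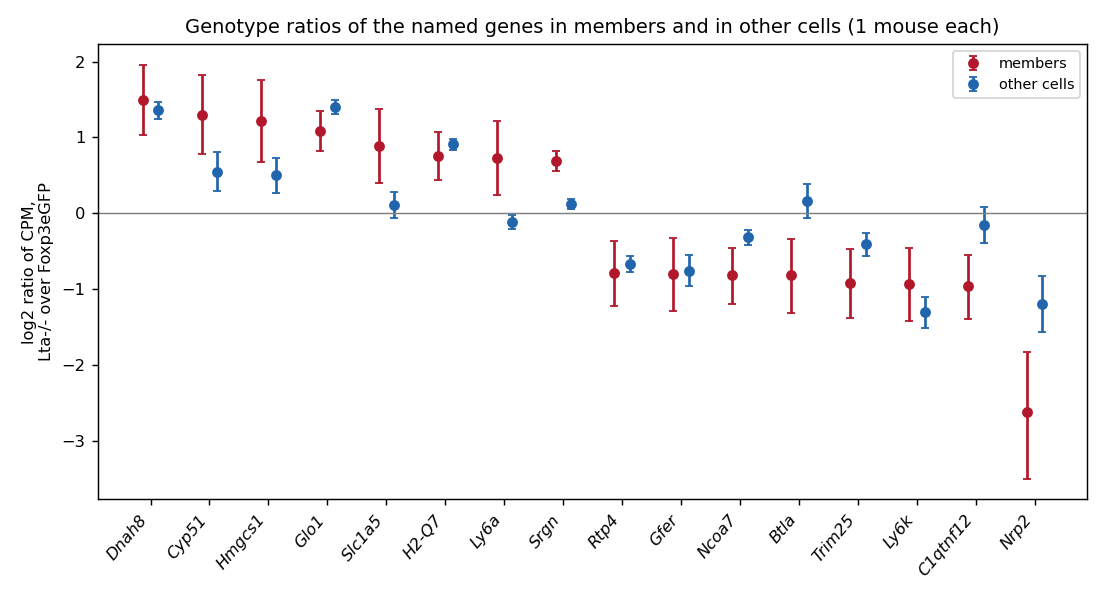
log2 ratio of CPM of Lta-/- over Foxp3eGFP cells, with exact 95% counting intervals, for the 16 genes named in the comparison of members and the same genes in the other cells. Dnah8, Glo1 and H2-Q7 lie at like heights in both sets, while Btla and Srgn lie away from 0 in the members and nearer to it in the other cells.

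Some other genes described above were called between the genotypes. Lmna was at -0.65 (-1.14 to -0.17) and Nrgn at -0.77 (-1.01 to -0.54). Xcl1 was lower in the Lta-/- members, at 513 UMIs in 57 cells against 260 UMIs in 38 cells (log2 -0.67 (-0.89 to -0.45)), but at -0.50 without the member with the most of its UMIs, which ends the call. Ccl4 was higher on the UMIs of few cells, at 2.42, and at 1.00 without the top member. Ccr9 was at -0.76 and Eomes at -1.04, the latter on 56 and 22 UMIs. Penk had 175 UMIs in 11 Foxp3eGFP members and 48 UMIs in 3 Lta-/- members, too few cells to describe the members as a whole. On the list of interferon response genes only Rtp4 of 17 tested was called (median -0.22), and genes outside that list are not covered by this count.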

How the data were processed

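Gene and hashtag UMI counts were deposited as 1 matrix that the authors made with Cell Ranger 6.0.1 on mm10 (GRCm38), per the submitters' processing notes; annotation and cell calling: not given in the sources used here. Cells were assigned to a mouse by the hashtag names in the matrix, which spell out WT or Lta; their antibody numbers differ from those in the labels' protocols, so the direction of every genotype value rests on these names. Cells with both hashtags were removed. Doublets within a genotype cannot be found this way, and no doublet caller was run. The number of per-sample value columns left unused was 0.

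Counts were summed per set of cells and scaled to 1000000 UMIs. Ratios have exact conditional binomial intervals, shares Clopper-Pearson intervals and levels Poisson intervals, all at 95% and covering counting error only. With 1 mouse per genotype no test between groups was possible. The members held 3074594 UMIs and the other cells 25991149. For comparisons of detection each cell was thinned to 3000 UMIs, which left out 6 members and 303 other cells.

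The members and gene lists were chosen with earlier results of these data known. Genes were named by rule: the 15 largest ratios each way against the other cells (at least 100 UMIs, 50 CPM in the higher set and a UMI in 10% of its cells), the 10 largest each way against the Treg-gene cells, and the 8 largest each way by genotype among genes with at least 50 UMIs, with the same minimums of CPM and of cells for each comparison. Rule genes and mitochondrial, ribosomal protein, predicted, V(D)J and sex genes were not eligible for naming. Genes named as list members come under the list. A few genes are not reported here. Alternatives changed the cell filters, the hashtag share, each threshold of the rule, the depth, the weighting of cells, the UMI minimum and the comparison cells. The counting code was tested on simulated data. Python 3.11.15, numpy 2.4.6, scipy 1.17.1, pandas 2.3.3 and matplotlib 3.10.9 were used.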

Additional observations from a re-analysis of the deposited data

Results flagged for a closer look

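Ccl4 and Nrgn were called in opposite directions between the genotypes in the members and in the other cells. Ccl4 had a log2 ratio of Lta-/- over Foxp3eGFP of 2.416 in the members and -3.507 in the other cells. Its UMIs lay in few cells: 1 Lta-/- member held 81 of 129, and 1 Foxp3eGFP other cell held 158 of 179. Nrgn had a log2 ratio of -0.7731 in the members and 0.6017 in the other cells. The 10 cells with the most Nrgn held 65.1% of its UMIs in the Foxp3eGFP members and 75.3% in the Lta-/- members, and 1 Lta-/- other cell held 143 of 1491. The difference between the sets was not tested for either gene, since there was 1 mouse per genotype.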

How the results depend on the processing

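No paired analysis was possible because both genotypes came from 1 capture with 1 mouse each and no test was made; for the same reason no replicate could be left out. Against the Treg-gene cells, where 368 genes were higher and 370 lower, the counts were 198 and 238 with at least 6 Tnfrsf9 UMIs, and 197 genes were higher with the Treg genes at 0 UMIs. There, 187 genes were lower with sums thinned to 3000 UMIs, 202 with the rule applied after thinning and 212 in the Lta-/- cells alone; the last 2 put the share of higher among called genes at 61.7% and 61.5% in place of 49.9%. By genotype, 89 higher and 134 lower genes became 55 and 84 with thinned sums and 53 and 78 with the rule after thinning, and 155 genes were higher with a minimum of 20 UMIs. Against the other cells, 1593 lower genes became 961 with the rule after thinning. Thinning leaves fewer UMIs and fewer genes tested; the cause of the other differences was not tested. Tyms, a proliferation gene at -2.76, was at 0.52 (-0.12 to 1.11) against cells that differ in Tnfrsf9 only. The other 75 values of these counts and of the share ratio stayed within 1.5 times the count or within the interval. Of the values of single genes under an alternative, 1074 stayed within the interval of the reported value, 211 did not and 1 reversed; of the counts in the lists, 360 stayed within 1.5 times and 30 did not, mostly small counts such as the lower TNF ligands (1, or 3 in the Foxp3eGFP cells alone). Leaving out members with a Foxp3 UMI or at least 5 UMIs of Cd8a and Cd8b1, and leaving out the top member of each gene, were chosen after seeing the data.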

Other observations

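Genes of cholesterol synthesis beyond those named by rule were looked up after Cyp51 and Hmgcs1 had been seen, so they were chosen after values were known. In the members the log2 ratio of Lta-/- over Foxp3eGFP was 1.86 (0.92 to 2.89) for Insig1, 1.27 (0.65 to 1.91) for Idi1 and 1.27 (0.63 to 1.93) for Msmo1. The other cells differed the same way, at 0.60, 0.59 and 0.50. Sqle was at 1.51 (0.39 to 2.75) on 10 and 23 UMIs, under the minimum of 50 for a call. Fdps, Sc5d and Fdft1 were at 0.51, 0.40 and 0.13 and not called.

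Lta lies on chromosome 17, and 7 of 88 placed genes higher in the Lta-/- members (7.95%) and 9 of 130 lower ones (6.92%) lay there, where 5.13% of the placed genes tested do. Btbd9, Glo1 and Dnah8 lie next to each other at chr17:30215524-30875762 (GRCm38) and were at 0.59, 1.09 and 1.49 in the members and 0.39, 1.40 and 1.36 in the other cells. Gfer, Rps2, Msrb1 and Spsb3, at chr17:24693190-24892150, went the other way, at -0.80, -0.60, -0.64 and -1.42 in the members. In the other cells they were at -0.75, -0.65, -0.10 and -0.45. Gpank1, Nfkbil1 and H2-Q7 lie within 0.24 Mb of Lta. Gpank1 and Nfkbil1 were at 0.95 (0.22 to 1.70) and 1.14 (0.43 to 1.88) in the members and at 0.16 and -0.03 in the other cells. The members held 27 and 42 UMIs of Gpank1 and 27 and 48 of Nfkbil1.

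A variable segment of the T cell receptor beta chain was seen in 134 members, which used 21 of the 35 segments in the matrix. The most frequent was Trbv2, in 28 of them (20.9%). Of the 185 cells with both hashtags, 20 (10.8%, 6.73 to 16.2) met the gene rule, with a median depth over all 185 of 10532 UMIs.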
